A study of Mus musculus with 23 samples.

Results

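RNA recovered without UV from mouse embryonic stem cells (ESCs) was compared with RNA recovered without UV from neural progenitor cells (NPCs) made from the same line. The material was the pair of site lists from the non-crosslinked (noXL) iCLIP2 controls, which pool 4 ESC and 4 NPC libraries, 8 of the 23 libraries and 2 of the 6 lists of the series. iCLIP2 recovers RNA that comes down with a protein, and the end of each read marks the nucleotide at which reverse transcription stopped. The series asked which RNAs the chromatin protein CTCF contacts in both cell states. In noXL libraries no UV linked protein to RNA, so the lists give a rough view of the RNA that was present and recovered in each state. Sites were counted per gene, on the same strand and within the gene body of the GENCODE M21 annotation, and divided by the number of genic sites in the list. Of 55413 annotated genes, 11595 held a site in at least 1 of the 2 lists, and 3726 held 20 or more in both together and were compared.

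Both groups came from 1 clone of the mouse E14 ESC line and carried the same alleles. Endogenous CTCF was tagged with mAID-eGFP on both alleles, OsTIR1(F74G) sat at 1 allele of Rosa26 as the receptor for the degron, an mCherry reporter followed Hb9, and a Flag-Halo wild-type (WT) CTCF transgene at Tigre was induced by doxycycline. Both groups received 1 µM 5-Ph-IAA and 1 µg/mL doxycycline for 24 hours, which removes endogenous CTCF and induces the transgene, and were precipitated with an antibody to Flag. ESCs were kept with LIF and inhibitors of GSK3 and MEK. NPCs were differentiated for 2 days in N2B27 on laminin. The UV lists used beside them came from the same line (WT) and from a line whose transgene lacks part of zinc finger 1 (ΔZF1), each in both cell states, after 400 mJ/cm2 of UV.

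The ESC noXL list held 158968 sites on chromosomes 1 to 19, X and Y, 94.9% of them within genes, and the NPC noXL list held 107227, 95.1% within genes. Read numbers were not analysed here, so depth is unknown. Because the authors called sites on merged libraries, each group is 1 list, no difference has a replicate check, and no test was made. A gene is called higher in 1 state where its scaled log2 ratio of NPC to ESC sites, with 1 added to each count, is at least 1 or at most -1. Ranges in parentheses are 95% Wilson intervals of a share, or of a ratio derived from it, and cover counting error only, and positions of 1 gene are not independent. Where a list held no site, the fold is a lower bound against 3 sites in that list. Where counts are set against each other, the ESC sites come first. A gene with sites in 1 list alone reached 20 through that list, so counts over compared genes are descriptions.

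The labels were set against marker genes. All 8 ESC markers held sites in the ESC list, 336 in sum with 1 to 158 per gene, against 17 in the NPC list, where 6 of the 8 were at 0. The 8 NPC markers were all at 0 in the ESC list and held 18 sites in the NPC list, from 0 to 14 per gene. Of these 18, Nes, the intermediate filament nestin, held 14, while Hes5, Zic1, Pou3f2 and Fabp7 were at 0 in both lists, a count that allows up to 3 sites. No NPC marker reached 20 sites. Neuronal markers held 13 ESC and 8 NPC sites, 12 and 4 of them in Stmn2. The 8 mesoderm and endoderm markers had no site in either list. Of the trophoblast and extraembryonic endoderm markers, Tfap2c held 22 against 4 sites, Krt8 2 against 13 and Krt18 0 against 4, with Cdx2, Elf5 and Sox7 at 0, and of the fibroblast markers Thy1 alone held sites, 0 against 5. The part that other cells had in the results was not tested, and in pooled cells fewer cells of a type and less RNA per cell cannot be told apart.

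Naive ESCs are held in their state by LIF acting through STAT3 and by a network of transcription factors that includes Esrrb, Tfcp2l1, Klf4 and Nanog. On leaving that state, cells pass a formative phase with Pou3f1 and Dnmt3b and then take up neural genes, many of them receptors, guidance cues and adhesion molecules with very long introns. Because the precipitate holds nuclear RNA, introns of unspliced transcripts are recovered beside exons.

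The 29 nucleotides around the highest-scoring noXL site show what a site is in genes at both ends of the comparison. They were read from mm10 on the strand of the gene, 5′ to 3′, with T given as u and the called nucleotide in capitals. The first 5 come from the ESC list and the next 5 from the NPC list. The last 2 of these were chosen after their values were seen, because the bases after the site resemble a library primer.
Esrrb, coding exon, chr12:86506496-86506524, plus strand: ccaagcacaucccaGgugagucacgguag
Tfcp2l1, exon of a noncoding transcript, chr1:118627931-118627959, plus strand: gccgcagcccacucAgguucgagugggug
Lifr, 5′ UTR, chr15:7129551-7129579, plus strand: ccgccuccgggcgcGcagucugcgccgga
Kat6b, coding exon, chr14:21662381-21662409, plus strand: aagaggaggaggagGaagaggaggagagc
Lama1, coding exon, chr17:67761656-67761684, plus strand: cuaugggacaccuuCacgugggaccccag
Grb10, 5′ UTR, chr11:12037387-12037415, minus strand: ggggguggggugcgGggaggcggcaggaa
Gli3, intron, chr13:15606364-15606392, plus strand: cuaagaaauacagaCagaucagacguggg
Dnmt3b, coding exon, chr2:153661576-153661604, plus strand: agccagucugcacaCcagagaccagaggu
Grip1, intron, chr10:119644689-119644717, plus strand: acagggaugugauuAucuuccgaucugcu
Magi1, intron, chr6:93794739-93794767, minus strand: cagcaaguguccugUucuuccgaucuuau

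The Esrrb site lay on the last base of an exon, in front of the GU that opens the intron. It was called in both ESC UV lists and in no NPC list. The strongest Lifr, Kat6b and Tfcp2l1 sites were also called in both ESC UV lists, and that of Tfcp2l1 in NPC WT as well. The Lama1 site was called without UV alone. The NPC windows differed from each other in composition: the Grb10 site lay among runs of G in the 5′ UTR, and the Gli3 and Dnmt3b sites were cytidines in an intron and in a coding exon. The Grip1 and Magi1 windows hold ucuuccgaucu, whose bases are those of the end, CGCTCTTCCGATCT, shared by both PCR primers of the library in the study's list of oligonucleotides. Neither of these sites was in the ESC noXL list, and both were called in ESC ΔZF1 with UV.

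Most genes held their share of sites in both states. Of the 3726 genes, 414 (11.1%) were higher in NPCs, 459 (12.3%) were higher in ESCs, and 2853 lay between the limits, with a median ratio of -0.046 over all. The interval excluded 0 in 395 of the 414, in 415 of the 459 and in 268 of the 2853. In 25 genes higher in NPCs the ESC list had no site, and in 42 genes higher in ESCs the NPC list had none. Just inside and outside the limits lay Sesn2 with 13 against 18 sites (inside) and Rad50 with 19 against 26 (outside), and on the ESC side Tspyl2 with 17 against 5 (inside) and Uba2 with 61 against 20 (outside). Protein-coding genes made up 3650 of the 3726, and among 27 lincRNA genes 5 were higher in NPCs and 10 in ESCs.

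**Figure D1:**
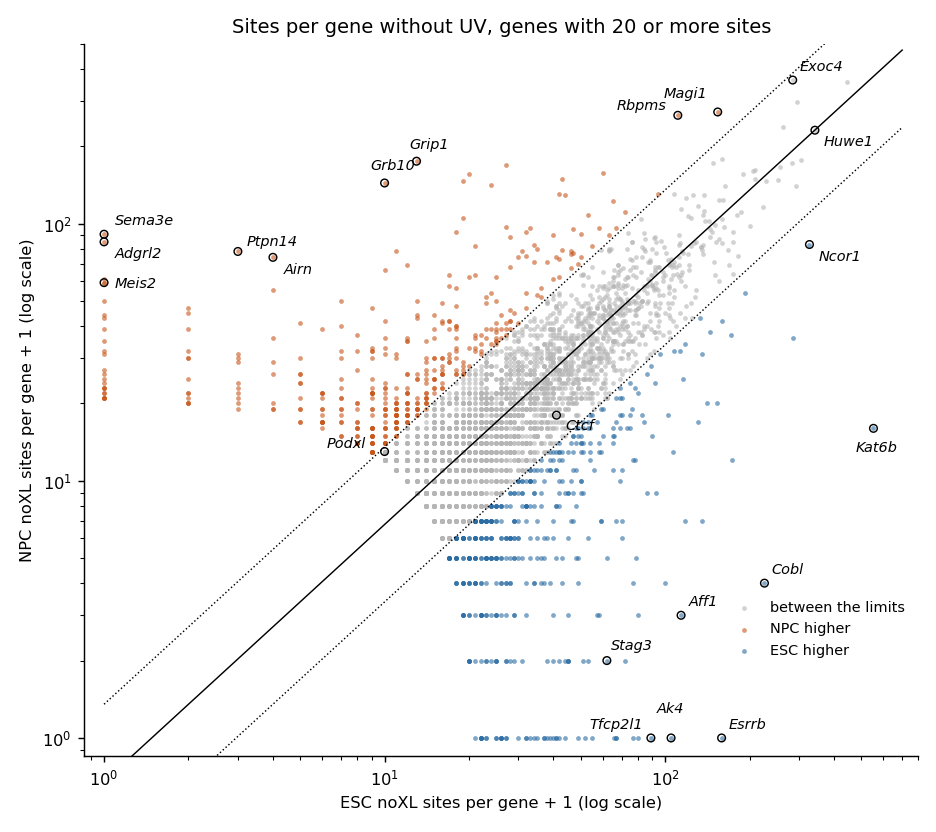
NPC noXL sites against ESC noXL sites for each gene with 20 or more sites in both lists together, 1 added to each count, on log axes. The solid line marks equal shares of the genic sites and the dotted lines the limits. Esrrb (158 and 0 sites in ESCs and NPCs) and Sema3e (0 and 90) lie at opposite edges, Kat6b (552 and 15) is the gene with most ESC sites, and Ctcf (40 and 17) and Podxl (9 and 12) lie between the limits.

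Transcripts of the naive pluripotency network lay on the ESC side or between the limits. Of the 15 genes of the list 8 were compared, 5 were higher in ESCs and none in NPCs. The shares over all genes compared were 12.3% and 11.1%. The median was -4.51, or -2.88 with genes at 0 set to their bound. Over all 15 genes, whether or not they reached 20 sites, the sites numbered 467 in ESCs and 25 in NPCs. Esrrb, an orphan nuclear receptor (chr12:86361117-86521628 on the plus strand, mm10), held 158 sites in ESCs and 0 in NPCs, at least 35.6-fold lower per genic site in NPCs. Tfcp2l1, a factor downstream of LIF (chr1:118627945-118685168 on the plus strand), held 88 against 0. Tbx3, a T-box factor, and Nr5a2, a nuclear receptor, held 41 and 26 sites in ESCs and none in NPCs. Tet2, which oxidises methylated cytosine, held 66 against 0. The NPC list was not empty for every member: Nanog held 21 against 7 sites, Klf5 21 against 8 and Zfp42 18 against 10, with ratios of -0.90 (-2.22 to 0.18), -0.73 (-1.97 to 0.32) and -0.22 (-1.37 to 0.81). Klf4 and Klf2, with 5 and 4 ESC sites and none in NPCs, were below 20.

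Factors that ESCs share with the later epiblast were not one-sided. Of 15 general pluripotency genes 6 were compared, 2 were higher in NPCs and none in ESCs, against 11.1% and 12.3% of all genes compared. Pou5f1 and Sox2, the core factors, held 6 against 5 and 7 against 5 sites, too few to compare. Lin28a, an RNA-binding protein that blocks let-7 processing, held 8 against 31 sites with a ratio of 2.39 (1.42 to 3.61), and 29 of its NPC sites were in introns. Zfp281, a zinc finger factor of the exit from the naive state, held 9 against 15. Dppa2, Tdgf1 and Fgf4 held 13, 12 and 7 sites in ESCs and none in NPCs, all under 20.

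Both the receptor and the transcription factor of the LIF pathway were higher in ESCs. Of 12 genes 7 were compared, 5 were higher in ESCs and 1 in NPCs, with a median of -1.28, which was 0.012 in introns alone. Lifr, the receptor of LIF, held 39 against 0 sites, at least 8.79-fold lower in NPCs. Il6st, its partner gp130, held 42 against 11 with a ratio of -1.28 (-2.31 to -0.43). Stat3, the transcription factor, held 41 against 1 with a ratio of -3.83 (-7.32 to -2.27). Gab1, an adaptor, held 143 against 37, with a ratio of -2.22 in introns and 0.97 in exons (14 against 18 sites). The kinase Pim1 held 23 against 6, and Socs3, the feedback inhibitor, 15 against 0, below 20. The exception was Ptpn11, a phosphatase that acts downstream of many receptors, with 24 against 38 sites and a ratio of 1.21 (0.50 to 1.96).

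Groups put together after the values were seen gave further members of the ESC side. Of 11 cell surface genes of stem cells 6 were compared and 5 were higher in ESCs: Jam2, a junction molecule (chr16:84774123-84825928 on the plus strand), with 76 against 0 sites, Pecam1 with 43 against 0, the receptor kinase Kit with 130 against 16, Cd9 with 42 against 9 and the alkaline phosphatase Alpl with 22 against 5. The call of Kit rested on introns, with 115 against 0 sites, while its exons held 15 against 16, a ratio of 0.71. Of 20 germ line and meiosis genes 5 were compared and all 5 were higher in ESCs. Stag3, the meiotic cohesin subunit (chr5:138280240-138312393 on the plus strand), held 61 against 1 sites with a ratio of -4.39 (-7.89 to -2.85), Hormad2 of the meiotic chromosome axis 52 against 1, and Tex14 of the germ cell bridges 99 against 3. Rnf17 and Mov10 held 47 against 4 and 22 against 1. Since these lists were chosen from the outcome, their counts describe the members only, and 12.3% of all genes compared were higher in ESCs.

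Lists of autophagy and DNA repair genes were chosen in the same way, so their counts too describe the members only. For scale, the ESC limit was reached by 12.3% of the 3726 genes and the NPC limit by 11.1%. Of 27 autophagy genes 10 were compared, 4 were higher in ESCs and none in NPCs. Ulk1, the kinase that starts autophagy (chr5:110784488-110810097 on the minus strand), held 79 against 0 sites, at least 17.8-fold lower in NPCs, and Gabarapl2, which is coupled to autophagic membranes, held 31 against 0. Atg14 held 24 against 2, whereas Sqstm1, a cargo receptor, held 17 against 20. Of 26 DNA damage genes 24 were compared, 7 were higher in ESCs and 1 in NPCs, with a median of -0.58. The checkpoint kinases Atm, Atr and Chek1 were higher in ESCs, with 36 against 4, 40 against 10 and 33 against 7 sites. Xrcc6, the Ku70 subunit of end joining, held 21 against 0, while its partner Xrcc5 held 25 against 9 with a ratio of -0.81 (-1.98 to 0.16).

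Other genes with the lowest ratios ranged over metabolism, the cytoskeleton, transcription and the matrix. Ak4, a mitochondrial adenylate kinase (chr4:101419277-101466995 on the plus strand), held 104 against 0 sites, at least 23.4-fold lower in NPCs. Inpp5d, an inositol phosphatase (chr1:87620312-87720507 on the plus strand), held 66 against 0, and Fbxo15, an F-box protein on chromosome 18, 54 against 0. Cobl, an actin nucleator (chr11:12236608-12464960 on the minus strand), held 225 against 3 with a ratio of -5.26 (-7.23 to -4.10). Ak4, Inpp5d and Fbxo15 had no NPC site at all. Aff1, of the super elongation complex (chr5:103692374-103855322 on the plus strand), held 113 against 2 with a ratio of -4.68 (-7.14 to -3.37), and Zfhx2, a homeobox factor, 51 against 0. Lama1, the laminin chain of the embryonic basement membrane (chr17:67697259-67822647 on the plus strand), held 71 against 1 with a ratio of -4.61 (-8.10 to -3.07).

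On the NPC side, all 4 compared genes of the formative and primed list (17 genes) were higher in NPCs, against 11.1% of all genes compared. Their median was 4.02, or 3.19 at the bound. The sites over the whole list numbered 41 in ESCs and 170 in NPCs. Dnmt3b, a de novo DNA methyltransferase, held 8 against 46 sites with a ratio of 2.95 (2.03 to 4.15), and the forkhead factor Foxp1 held 6 against 39. Sox4 and Sox11, SoxC factors of early neural cells, held 20 and 20 sites in NPCs and none in ESCs. Pou3f1, Zic2 and Sall2 held 8, 6 and 8 NPC sites and no ESC site, below 20. Etv4, a target of ERK, went the other way with 15 against 4, also below 20.

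Of 32 neural progenitor genes 3 were compared and 2 were higher in NPCs, against 11.1% of all genes compared. Meis2, a homeobox factor of the brain (chr2:115863064-116065839 on the minus strand), held 0 against 58 sites, at least 28.6-fold higher in NPCs. Gli3, the Hedgehog effector that acts as a repressor in the dorsal neural tube, held 1 against 46 with a ratio of 5.12 (3.56 to 8.61). Msi1, an RNA-binding protein of neural stem cells, held 9 against 11 with a ratio of 0.83 (-0.38 to 2.09), between the limits. Vim, vimentin, held more ESC than NPC sites, 13 against 2, below 20.

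Genes of axon guidance lay on both sides. Of 43 genes 13 were compared, 6 were higher in NPCs and 2 in ESCs, against 11.1% and 12.3% of all genes compared. The list median, 0.36, ran from -1.13 to 6.78 over the alternative settings. Sema3e, a secreted semaphorin (chr5:14025276-14256689 on the plus strand), held 0 against 90 sites, at least 44.4-fold higher in NPCs. The netrin receptor Unc5b held 0 against 31, the ephrin Efnb2 0 against 23, Sema6a 1 against 29 and Slit3, a ligand of Robo receptors, 4 against 25. Epha4, an ephrin receptor (chr1:77367185-77515088 on the minus strand), was the opposite, with 65 against 0, and Robo1 was higher in ESCs with 25 against 7 and a ratio of -1.14 (-2.45 to -0.096). Of 34 genes of neuronal adhesion and synapses only 3 were compared. Cadm1, a synaptic adhesion molecule, held 20 against 62, Ank2, a membrane scaffold, 1 against 24, and Tenm3, a teneurin, 128 against 54 with a ratio of -0.67 (-1.14 to -0.22). The list median, 2.15, was -0.021 when genes with 10 to 19 sites were added.

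Further genes with the highest ratios were Adgrl2, an adhesion receptor of the latrophilin family (chr3:148815583-148990555 on the minus strand), with 0 against 84 sites, and Kcnj3, a potassium channel subunit (chr2:55435970-55598145 on the plus strand), with 0 against 58. Both had no ESC site, and were at least 41.4-fold and 28.6-fold higher in NPCs. Ptpn14, a phosphatase that restrains YAP (chr1:189728268-189876695 on the plus strand), held 2 against 77 with a ratio of 5.26 (3.94 to 7.72). Grip1, a PDZ scaffold of glutamate receptors (chr10:119453830-120087261 on the plus strand), held 12 against 174 with a ratio of 4.32 (3.59 to 5.25). Intron sites made up 167 of 174 in Grip1 but 31 of 77 in Ptpn14. Ssbp3, a partner of LIM homeobox complexes, held 19 against 155, Ppp1r9a, which binds actin in neurites, 18 against 145, Lpp, a focal adhesion protein, 10 against 77, and the zinc finger gene Zfp462 3 against 54. Their ratios were 3.53 (2.91 to 4.27), 3.51 (2.87 to 4.27), 3.39 (2.58 to 4.44) and 4.35 (3.14 to 6.33).

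Among imprinted genes, a pair at 1 locus lay on opposite sides. Airn, a noncoding transcript that runs antisense across Igf2r and silences it on the paternal allele (chr17:12741311-12860136 on the plus strand), held 3 against 73 sites with a ratio of 4.77 (3.58 to 6.75), all 73 of the NPC sites in introns. Igf2r, on the other strand, held 52 against 5 with a ratio of -2.58 (-4.10 to -1.53). Grb10, an imprinted adaptor of growth factor receptors that the study followed (chr11:11930508-12038683 on the minus strand), held 9 against 143 with a ratio of 4.41 (3.60 to 5.51), and 128 of its NPC sites but 2 of its ESC sites were in introns. Of 41 imprinted genes 16 were compared, 6 were higher in NPCs and 3 in ESCs, against 11.1% and 12.3% of all genes compared. Sgce held 0 against 34, the zinc finger gene Peg3 12 against 49, and the noncoding Mirg and Kcnq1ot1 9 against 65 and 49 against 90. On the ESC side stood Plagl1, a zinc finger factor, with 34 against 0, and Impact with 41 against 11. Ube3a and Snrpn lay between the limits with 61 against 40 and 27 against 17. These counts do not tell the parental alleles apart.

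Noncoding transcripts lay on both sides as well. Of 38 long noncoding genes 17 were compared, 4 were higher in NPCs and 4 in ESCs, against 11.1% and 12.3% of all genes compared. Lncenc1, a transcript of naive ESCs, held 38 against 3 sites with a ratio of -2.72 (-4.71 to -1.49), and Neat1, the core of paraspeckles, held 33 against 8 with a ratio of -1.35 (-2.57 to -0.39). At the X inactivation centre, Ftx was higher in NPCs with 11 against 68 and a ratio of 3.09 (2.29 to 4.10), whereas Tsix held 102 against 37 with a ratio of -0.87 (-1.44 to -0.36). The Platr genes were named for transcripts associated with pluripotency, and this list was added after the values were seen. Of 20 Platr genes 5 were compared, and Platr14, Platr16 and Platr4 were higher in ESCs with 37 against 0, 24 against 2 and 23 against 5. Platr22 (chr1:136696211-136726142 on the plus strand) had the opposite pattern, 0 against 60, at least 29.6-fold higher in NPCs, and Platr21, below 20, held 0 against 14.

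In signalling pathways single components lay past the limits. In Hedgehog signalling (5 of 13 compared) the receptor Ptch1 and the activator Gli2 were higher in ESCs, with 29 against 4 and 40 against 0 sites, while the transducer Smo, the coreceptor Cdon and Gli3 were higher in NPCs, with 8 against 15, 8 against 21 and 1 against 46. In Notch signalling (4 of 19) the receptors Notch1 and Notch3 were higher in NPCs, with 12 against 25 and 4 against 25, while Notch2 held 32 against 38 and the effector Rbpj 76 against 27, with ratios of 0.81 (0.14 to 1.48) and -0.90 (-1.56 to -0.30). The medians of these short lists, 1.39 and 1.18, turned sign under some settings.

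ESC medium held an inhibitor of MEK, the kinase above ERK, and none is named for NPC medium. LIF, a GSK3 inhibitor and differentiation differed with it, so its part cannot be told apart from theirs and was not tested. Of 28 FGF and ERK genes 11 were compared. Higher in NPCs was 1, Spred1 with 24 against 34, and none in ESCs, beside 11.1% and 12.3% of all genes compared. The receptors Fgfr1 and Fgfr2 held 41 against 52 and 205 against 160, with ratios of 0.90 (0.32 to 1.49) and 0.21 (-0.091 to 0.50). Transcripts that ERK activity induces varied. The phosphatases Dusp6, Dusp5 and Dusp4 held 14, 10 and 6 sites in NPCs and Egr1 5, all with none in ESCs and below 20. Etv5 held 38 against 19 with a ratio of -0.40 (-1.22 to 0.35), between the limits, and Etv4, below 20, 15 against 4. Of 30 Wnt genes 13 were compared, and Fzd5, a receptor, was higher in ESCs with 21 against 2 and Amotl2 higher in NPCs with 5 against 16. The other 11, among them Ctnnb1, beta-catenin, with 48 against 43 and Gsk3b with 66 against 45, lay between the limits. Of 23 BMP and Nodal genes 10 were compared. Smad7, the inhibitory Smad, was higher in ESCs with 49 against 8, and the common Smad4 and the corepressor Skil higher in NPCs with 20 against 31 and 15 against 29.

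Genes of epithelial adhesion and polarity lay on both sides. Of 28 genes 18 were compared, 6 were higher in NPCs, 2 in ESCs and 10 in neither, with a median of 0.37. Over all genes compared 11.1% were higher in NPCs and 12.3% in ESCs. The whole list held 743 ESC and 973 NPC sites, a pooled ratio of 0.95 (0.82 to 1.09). Patj and Pard3, scaffolds of apical polarity, held 1 against 44 and 41 against 129 sites with ratios of 5.06 (3.50 to 8.55) and 2.19 (1.71 to 2.72). Cdh1, E-cadherin, was higher in NPCs with 33 against 82, as were Dsp, desmoplakin, with 9 against 35 and the integrin Itgb1 with 22 against 51. The kinase Prkci, which acts with Pard3, was higher in ESCs with 49 against 9, and so was Pkp2, plakophilin, with 28 against 4. Podxl, podocalyxin, which the study followed (chr6:31519488-31563981 on the minus strand), held 9 against 12 with a ratio of 0.94 (-0.23 to 2.19). Of 18 matrix genes 12 were compared, 5 were higher in NPCs, 2 in ESCs and 5 in neither. The laminin chains did not move together: Lama1 held 71 against 1, Lamb1 2 against 23, Lama5 27 against 45 and Lamc1 46 against 23. The linker Nid1 held 24 against 0, and the proteoglycans Gpc3 and Gpc6 5 against 21 and 1 against 19.

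Among chromatin regulators, some related genes lay on opposite sides, while 11.1% of all genes compared were higher in NPCs and 12.3% in ESCs. Among 6 compared of 15 DNA methylation genes, Tet2 and Tet1 were higher in ESCs, with 66 against 0 and 159 against 41 sites, though the exons of Tet1 held 9 against 34, a ratio of 2.43, and Tet3 and Dnmt3b higher in NPCs, with 8 against 29 and 8 against 46. The ratio of Tet3 was 2.30 (1.32 to 3.52). The maintenance methyltransferase Dnmt1 held 83 against 39, with a ratio of -0.51 (-1.07 to 0.02). Of 19 CTCF and cohesin genes 14 were compared, 1 was higher in NPCs, 1 in ESCs and 12 in neither. Among the cohesin subunits that replace each other in the complex, Stag2 was higher in NPCs with 4 against 40 and a ratio of 3.60 (2.46 to 5.31), Stag1 held 120 against 75 with a ratio of -0.11 (-0.53 to 0.30), and the meiotic Stag3, in another list, was higher in ESCs as given above. Wapl, which releases cohesin, was higher in ESCs with 77 against 22. Ctcf itself (chr8:105636568-105682922 on the plus strand) held 40 against 17 with a ratio of -0.62 (-1.48 to 0.14). In introns it held 31 against 10 sites, a ratio of -1.06, and in exons 9 against 7, a ratio of 0.30. Both groups also carried the induced CTCF transgene, and its part in these counts was not tested.

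Of 27 polycomb and histone methylation genes 22 were compared. Higher in NPCs were 4 of them and in ESCs 1, against 11.1% and 12.3% of all genes compared. The core subunits Ezh2 and Suz12 and the accessory subunit Jarid2 held 133 against 80, 136 against 82 and 161 against 96 sites with ratios between -0.18 and -0.16. Kdm2b, which recruits polycomb to CpG islands (chr5:122870665-122989823 on the minus strand), held 6 against 49 with a ratio of 3.40 (2.40 to 4.78), and Kmt2c, an enhancer methyltransferase, was higher in ESCs with 101 against 17. Among 20 corepressor and acetylation genes 13 were compared, 2 were higher in NPCs, 2 in ESCs and 9 in neither. Kat6b, a histone acetyltransferase (chr14:21481434-21672478 on the plus strand), held 552 against 15 with a ratio of -4.55 (-5.37 to -3.91). Its paralog Kat6a held 25 against 31 with a ratio of 0.86 (0.12 to 1.63). Ncor1, a corepressor (chr11:62316426-62458541 on the minus strand), held 326 against 82 with a ratio of -1.41 (-1.78 to -1.08). In exons alone the Ncor1 ratio was -0.81.

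Over all genes compared 76.6% lay between the limits, against which the lists of general cell functions are set. Past the limits lay 1 of 26 compared hnRNP and SR genes, 2 of 29 ribosomal protein genes, 3 of 23 cell cycle and replication genes, 2 of 17 translation factor genes and none of 7 hosts of small nucleolar RNAs. No replication-dependent histone gene reached 20 sites. All 3 chaperone genes past a limit, of 15 compared, were higher in ESCs. Ccnd1, cyclin D1, was higher in NPCs with 12 against 20, and Cdk1 and Mcm2 higher in ESCs with 47 against 13 and 30 against 9. Of 58 compared Zfp genes 10 were higher in each state and 38 lay between the limits.

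Metabolic lists are given beside the 11.1% of all genes compared that were higher in NPCs and the 12.3% higher in ESCs. Of 18 serine and one-carbon genes 10 were compared, 5 were higher in ESCs and none in NPCs. Tdh, the threonine dehydrogenase on which mouse ESCs depend, held 25 against 0 sites, and Shmt1, which passes carbon from serine to folate, 35 against 4 with a ratio of -2.28 (-4.0 to -1.13). Gldc of the glycine cleavage system held 16 against 19. Of 20 glycolysis genes 12 were compared, 1 was higher in NPCs, 2 in ESCs and 9 in neither. Pfkp, a phosphofructokinase, was higher in ESCs with 69 against 5, and the glucose transporter Slc2a1 higher in NPCs with 12 against 43, while its paralog Slc2a3 held 35 against 29. Of 93 respiratory chain genes 12 were compared, 3 were higher in ESCs and 1 in NPCs. Of 22 cholesterol synthesis genes 13 were compared, 3 were higher in NPCs, with ratios up to 1.27, and none in ESCs. Sc5d, Hmgcs1 and Fdft1 held 10 against 17, 17 against 25 and 25 against 35. The exons of Hmgcs1 held 16 against 6, a ratio of -0.66.

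Among short lists, 7 of 17 p53 targets were compared and 1 was past a limit, Sesn2, a sestrin induced by stress. Over all genes compared 11.1% were higher in NPCs and 12.3% in ESCs. Of 21 retinoic acid genes 2 were compared, with the receptor Rara higher in ESCs at 17 against 5 sites and the corepressor Rere higher in NPCs at 66 against 95. Of 13 trophoblast and extraembryonic endoderm genes 5 were compared, 2 were higher in NPCs and 2 in ESCs, and all but Tfap2c encode matrix proteins. The 2-cell-like list had no site in either list of sites.

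**Figure D2:**
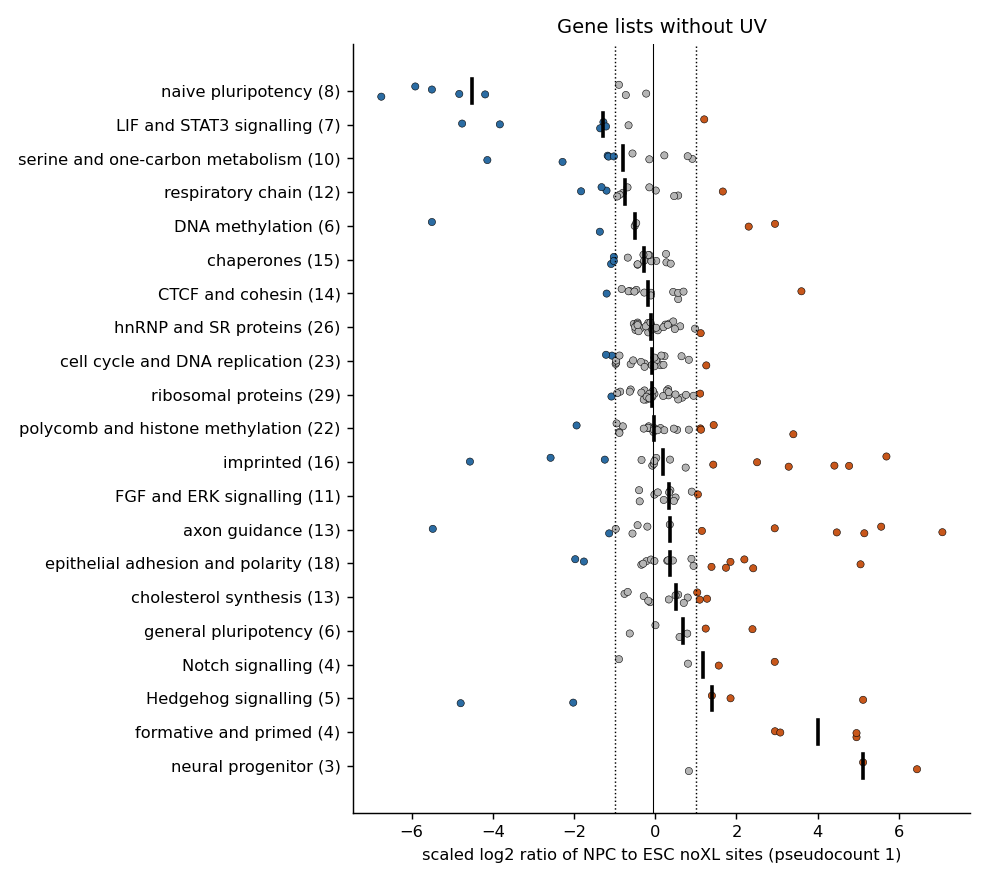
Scaled log2 ratios of NPC to ESC noXL sites for the compared members of 21 gene lists, 1 dot per gene and the number of genes in parentheses, with black bars at list medians. Dotted lines mark the limits and the thin line the median of all genes compared, -0.046. The naive pluripotency median lies at -4.51, the formative and primed median at 4.02 and the hnRNP and SR median at -0.11. Genes with no site in 1 list are placed by the pseudocount.

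Of the 9 genes with most sites in either list, 5 lay between the limits. In the ESC list they were Kat6b, Gm20388, Huwe1, Ncor1 and Tead1, and in the NPC list Exoc4, Gm20388, Ankrd11, Magi1 and Rbpms. Huwe1, a ubiquitin ligase, held 341 against 230 sites, or 2.53 and 1.71 per kb of gene body, with a ratio of -0.0019 (-0.24 to 0.24). Ankrd11, a chromatin regulator, held 294 against 296, and Exoc4, an exocyst subunit with 284 against 361, or 0.392 and 0.498 per kb. Rbpms, an RNA-binding protein, was higher in NPCs with 110 against 263 and a ratio of 1.81 (1.50 to 2.14), and Magi1, a junction scaffold, with 153 against 271 and 1.38 (1.10 to 1.67). Tead1, a partner of YAP, held 304 against 176 with a ratio of -0.22 (-0.49 to 0.043). The model Gm20388 shared 94.5% of its 445 against 355 sites with other genes on its strand, so its counts belong to those genes as well.

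The ratio was farther from 0 in introns than in exons of the genes called, where a nucleotide counts as exon if any transcript holds it in an exon and each part is scaled to its own total. For genes higher in NPCs, exons held 61.5% of the ESC sites (60.2 to 62.7) and 42.3% of the NPC sites (41.5 to 43.1). For genes higher in ESCs it was 47.3% of the ESC sites and 65.3% of the NPC sites. Pooled over each class, the state with more sites had the larger intron share, which did not hold for every gene: Ptpn14, higher in NPCs, had 2 of 2 ESC sites and 31 of 77 NPC sites in introns. Among genes higher in NPCs with 20 or more sites in exons and in introns (88 genes), the median ratio was 0.92 in exons and 2.27 in introns, and among genes higher in ESCs (106 genes) it was -1.02 and -2.18. These parts belong to the count that called the genes. Of the 88, 41 passed the limit in exons and 84 in introns, and of the 106, 54 and 105. Magi1 is an example, with 16 exon sites in ESCs and 9 in NPCs, a ratio of -0.14, against 137 and 262 intron sites.

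In 11 genes exons and introns passed the limits in opposite directions. They were counted after the data were seen and are described only. Tet1, a cytosine dioxygenase of ESCs, held 9 against 34 exon sites and 150 against 7 intron sites, with ratios of 2.43 and -3.76. Its exons thus held more sites in NPCs and its introns more in ESCs. Without UV the whole-gene count, 159 against 41, is the sum of these opposite parts. With UV the introns went the same way, with 464 against 3 sites for WT and 272 against 2 for ΔZF1. The exons held 155 against 65 for WT and 48 against 49 for ΔZF1, with ratios of -0.48 and 0.71. Mtf2, a polycomb accessory subunit, held 19 against 32 exon sites and 155 against 31 intron sites. Nfatc2ip was the third gene of this direction, with 9 against 12 exon sites and 20 against 0 intron sites.

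The other 8, among them Acsl4, Ptprf, Phc1 and Ddx3x, had more exon sites in ESCs and more intron sites in NPCs. Acsl4, a fatty acid CoA ligase, held 26 against 6 exon sites and 5 against 86 intron sites. Ptprf, a receptor phosphatase, held 52 against 8 exon sites and 4 against 26 intron sites, and Phc1, a polycomb subunit, 22 against 5 exon sites and 5 against 20 intron sites. With UV, Acsl4 held 22 against 167 intron sites and 78 against 58 exon sites for WT, and 11 against 72 intron sites and 47 against 15 exon sites for ΔZF1. Its intron ratios were 4.08 and 2.80, and its exon ratios 0.34 and -0.90, so that the exons of WT leaned to NPCs like the introns. Ptprf held 3 against 30 intron sites for WT and 5 against 40 for ΔZF1. Of the 11 genes, 0 passed opposite limits in WT and 1 in ΔZF1. Their exon ratios had the sign seen without UV in 4 and 9 of the 11, and their intron ratios in 11 and 9.

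**Figure D3:**
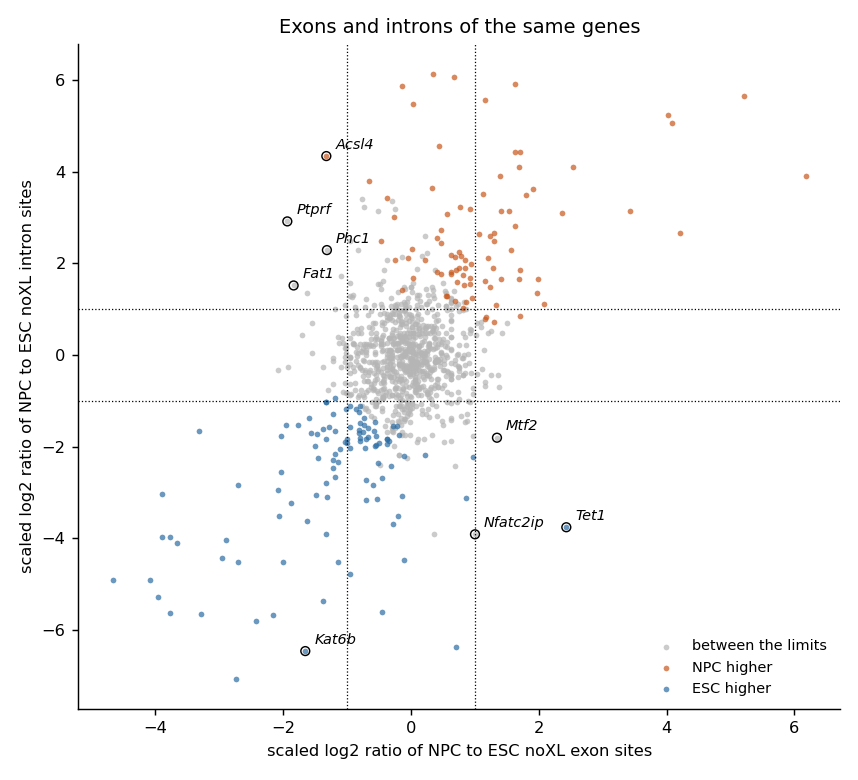
Scaled log2 ratio of NPC to ESC noXL intron sites against that of exon sites, for genes with 20 or more sites in each part, coloured by the call on the whole gene. Dotted lines mark the limits of 1 and -1. Tet1 lies at 2.43 in exons and -3.76 in introns and Acsl4 at -1.32 and 4.34, in the opposed corners.

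Long genes were more often higher in NPCs. Of the 286 compared genes over 160 kb, 35.7% were higher in NPCs and 14.3% in ESCs, and of the 304 genes under 10 kb 5.59% and 10.9%. The share higher in ESCs stayed between 10.9% and 14.3% over the 6 length classes. The median length was 72.2 kb for genes higher in NPCs, 41.0 kb for genes higher in ESCs and 36.0 kb for the rest. In genes over 160 kb the median ratio was 0.21 from exon sites and 0.54 from intron sites. By chromosome, 11 had 5.37% of its 410 genes higher in NPCs and 14.6% higher in ESCs. Of the chromosomes 1 to 19 and X, the share higher in NPCs ran from 5.37% on 11 to 17.5% on 13. Without chromosome 11 the counts were 392 and 399.

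**Figure D4:**
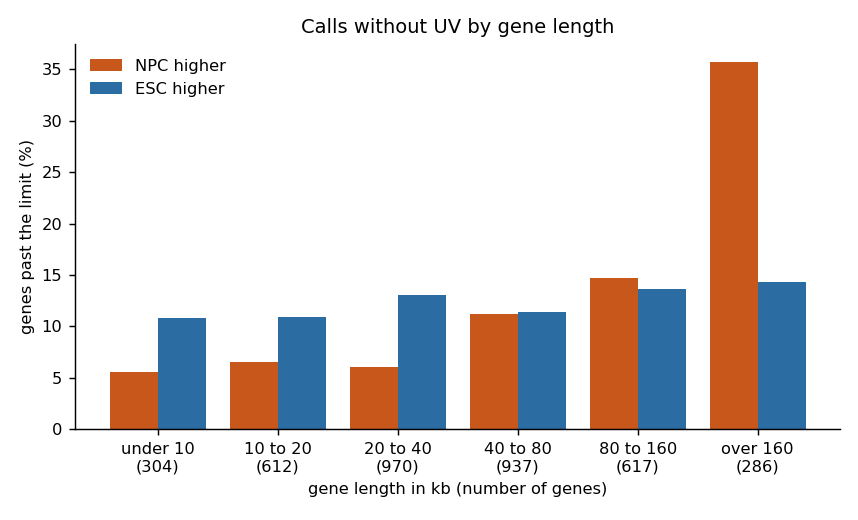
Percent of compared genes past the limits without UV in 6 classes of gene length, with the number of genes in parentheses. Bars start at 0. The NPC bar reaches 35.7% over 160 kb, against 5.59% under 10 kb, and the ESC bars lie between 10.9% and 14.3%.

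The UV lists come from other libraries and give the same contrast of cell states a separate measurement, with UV and, for ΔZF1, another line. Of the compared genes that also reached 20 sites there, 10.2% were higher in NPCs and 10.1% higher in ESCs in the WT lists, and 10.5% and 12.5% in the ΔZF1 lists. Of the 390 genes higher in NPCs without UV that could be compared in WT, 236 were higher in NPCs there too and 3 were higher in ESCs. Of 446 higher in ESCs, 231 were higher in ESCs in WT and none in NPCs. For ΔZF1, 217 of 368 and 222 of 422 passed the same limit, while 13 and 4 were past the opposite limit. Of the 2830 genes between the limits, 138 were higher in NPCs and 138 in ESCs in WT. Among genes compared in all 3 pairs, 165 of 354 higher in NPCs and 173 of 417 higher in ESCs passed the same limit in both UV pairs, and 106 and 154 passed it in neither.

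The named genes at the extremes lay on the same side in all 3 pairs. With UV, Esrrb held 460 against 0 for WT and 263 against 0 for ΔZF1. Sema3e held 0 against 169 for WT and 0 against 40 for ΔZF1, and Airn 0 against 153 for WT and 0 against 148 for ΔZF1. Grb10 held 15 against 279 for WT and 3 against 132 for ΔZF1. All 4 lay on the side they had without UV. The sizes differed between pairs for some genes: Lama1 held 206 against 1 for WT and 58 against 16 for ΔZF1, with ratios of -5.79 and -1.29, and Aff1 188 against 0 for WT and 98 against 19 for ΔZF1. Podxl, between the limits without UV, held 8 against 46 for WT and 1 against 32 for ΔZF1, with ratios of 3.28 and 4.55, and Ctcf held 109 against 28 for WT and 68 against 23 for ΔZF1, with ratios of -1.02 and -1.02. The naive pluripotency genes compared were higher in ESCs in 8 of 8 for WT and in 7 of 8 for ΔZF1, against 5 of 8 without UV. LIF and STAT3 genes were so in 4 of 7 and 2 of 7.

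**Figure D5:**
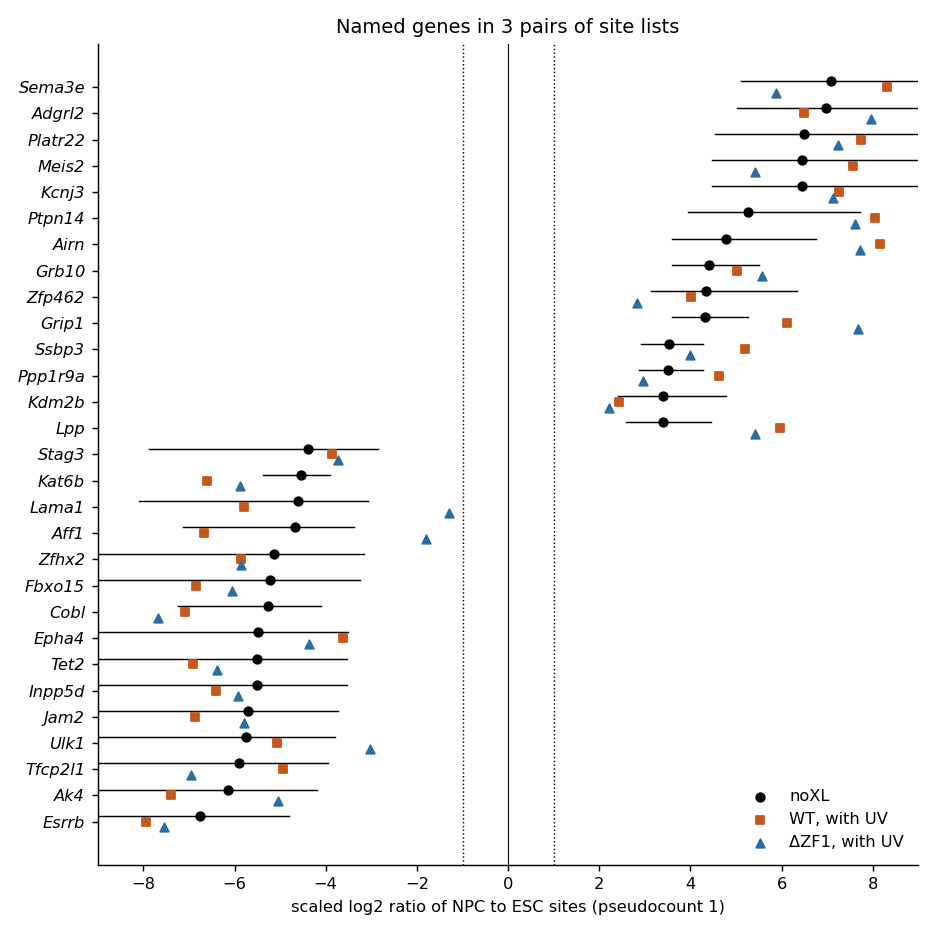
Scaled log2 ratios of NPC to ESC sites for the genes with the highest and lowest ratios without UV, in the noXL pair (circles, with 95% intervals of counting error that run to the edge where a list had no site), the WT pair (squares) and the ΔZF1 pair (triangles). Dotted lines mark the limits. Each gene lies on 1 side in all 3 pairs. Lama1 lies at -4.61 without UV, -5.79 in WT and -1.29 in ΔZF1.

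The noXL lists were alike in where their sites lay and differed in the base at the site. Coding exons held 32.05% of ESC and 30.21% of NPC sites, UTRs 19.14% of ESC and 19.21% of NPC sites, introns 38.11% of ESC and 40.53% of NPC sites and regions between genes 4.03% of ESC and 3.68% of NPC sites. Antisense sites made up 1.09% of ESC and 1.19% of NPC sites, with a median PureCLIP score of 6.91 in ESCs and 16.6 in NPCs, against 4.32 and 3.89 in introns. Cytidine lay under 21.7% of ESC sites (21.5 to 21.9) and 28.5% of NPC sites (28.2 to 28.8). Uridine, the base that UV links most readily, lay under 28.3% and 27.9%. A cytidine followed by adenosine made up 8.94% and 16.2% of sites. Cytidine was more frequent in the NPC list in all 3 gene classes, 28.6% in genes higher in NPCs, 29.2% in genes higher in ESCs and 28.0% in the rest, against 21.5%, 20.9% and 20.8% in the ESC list, and the part of this base difference in the gene ratios was not tested.

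Sequence near the sites also set the NPC list apart. The 29-nucleotide windows were searched on the strand of the site, not on the other, for any of the 7 overlapping words of 8 bases in the primer end printed above. Such a word lay in 643 of the NPC noXL windows, 0.60% (0.555 to 0.648), and in 418 of the ESC noXL windows, 0.263% (0.239 to 0.289). In windows of the same length 1000 nucleotides away on both sides the share was 0.143% and 0.164%. Among the 1% of sites with the highest scores it was 6.53% in NPCs (70 of 1072) and 2.01% in ESCs (32 of 1589). The 4 UV lists had between 0.223% and 0.348%. A match describes the letters, and whether any is a site of priming was not tested. Leaving these sites out gave 412 genes higher in NPCs and 455 higher in ESCs. Genes of small nucleolar RNAs held 155 ESC and 148 NPC sites.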

How the data were processed

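iCLIP2 libraries from mouse E14 ESCs and NPCs were analysed from the site lists the authors deposited, 1 per group, and groups were taken from the sample labels. The authors split the reads by barcode, trimmed and mapped them (STAR, mm10), collapsed reads that shared a molecular identifier (UMI-tools), merged replicates and ran PureCLIP on the merged reads. Versions are not given in the sources used here. The deposited lists give each site a PureCLIP score, which was used to choose the sites printed and, in 1 alternative, as a minimum.

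Nuclear sites outside scaffolds were counted per gene of GENCODE M21, whose mm10 positions are 1-based, on the same strand. The ratio was (NPC sites + 1) to (ESC sites + 1) divided by the ratio of genic sites, 102002 to 150821, on the log2 scale, for genes with a sum of at least 20 sites. Without this scaling every log2 ratio is lower by 0.56. The limits were 1 and -1. No test was made and no library was left out, because the lists analysed here are of merged libraries and per-library counts were not analysed here. Annotation priority was coding exon, UTR, noncoding exon, intron, antisense and intergenic. Sites in several genes counted in each.

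Genes named were Ctcf, Podxl and Grb10, the 5 with most sites in each list, the 15 highest and 15 lowest ratios among genes with 50 or more sites and under 50% of them in another gene, up to 6 members per list with the ratios farthest from 0, and list members under 20 sites that mark a cell state. Further members were named to complete a pathway or pair after their values were seen. Members, lists and rules were chosen with earlier results of these data known, and 5 of the 44 lists after their values were seen. Of the genes picked, 1 is not reported here. Of 1356 list symbols, 1350 matched the annotation. The calculation was tested on simulated data. Python 3.11.15, numpy 2.4.6, pandas 2.3.3 and matplotlib 3.10.9 were used.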

Additional observations from a re-analysis of the deposited data

Results flagged for a closer look

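Nemp1, a protein of the inner nuclear membrane, and Ufd1, a partner of the p97 ATPase, were past the NPC limit without UV and past the ESC limit in both UV pairs. Nemp1 held 8 against 15 sites in ESCs against NPCs without UV, 39 against 4 in WT and 27 against 5 in ΔZF1, with scaled log2 ratios of 1.39 (0.27 to 2.67), -2.10 (-3.81 to -0.96) and -1.72 (-3.25 to -0.60). Ufd1 held 10 against 15, 39 against 7 and 19 against 2 sites, with ratios of 1.10 (0.02 to 2.27), -1.42 (-2.71 to -0.45) and -2.23 (-4.69 to -0.79). The difference between the pairs was not tested, and the counts without UV are small.

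Sites outside the chromosomes compared were few. The ESC noXL list held 190 sites on unplaced scaffolds and 53 on the mitochondrial chromosome, and the NPC noXL list held 93 and 23. On 1 scaffold lay 160 of the 190 and 82 of the 93. These sites entered no comparison.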

How the results depend on the processing

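No paired analysis was possible because the site lists analysed here were called on merged libraries and per-library counts were not analysed here. The number of genes higher in NPCs, 414, was 206 without scaling, 781 with a minimum of 10 sites, 127 with 50, 187 with sites at or above the median score, 252 in introns, 217 in exons and 155 where the whole interval had to pass the limit. The number higher in ESCs, 459, was 1132, 924, 147, 229, 279, 228 and 141 under the same settings and 281 with a pseudocount of 5. Without scaling 15.4% of the calls were NPC higher, against 47.4%. No call changed side except 2 in exons alone. The other settings kept both counts within 1.5 times. The settings for the whole interval, for chromosome 11 and for primer words were chosen after seeing the data. For the 39 genes picked by the naming rule, and the alternatives other than the whole interval and chromosome 11, 570 ratios stayed within the counting interval, 52 moved beyond it and 1 that was past a limit changed sign, Magi1 in exons (-0.14). The exon ratio was also read for the other called genes named with 20 or more sites in exons and in introns. It had the opposite sign to the call in Acsl4, Gab1, Hmgcs1, Kit and Tet1, as given beside them. Genes with fewer sites in either part were left out. Of ratios between the limits 14 changed sign, among them Ankrd11 (-0.42) and Ctcf (0.30) in exons, 2 for Gm20388 and 10 for Huwe1. Of list medians 502 stayed within an interval of the median over the members (their range for lists under 6 genes), 33 moved and 6 past a limit changed sign, which were LIF and STAT3 signalling in introns (0.012), Notch signalling with 50 sites (-0.0450), with the score minimum (-0.20) and in introns (-0.81), Hedgehog signalling without uridine sites (-1.84) and neuronal adhesion with 10 sites (-0.021). Of the 430 values of medians between the limits 73 changed sign. The cause was not tested. The score minimum took the uridine share to 27.7% in ESCs and 27.5% in NPCs. The unknown read depth limits all counts. Msi1, with 20 sites, has an interval of -0.38 to 2.09.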
